A study of Mus musculus with 6 samples.

Results

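ETS factors are a family of transcription factors that share a DNA-binding ETS domain, and 10 of its genes that are studied in blood progenitors were followed here: Spi1, Spib, Fli1, Erg, Ets1, Ets2, Elf1, Etv6, Gabpa and Elk3. Members were found by symbol: each array probe set whose platform annotation gives exactly 1 of these symbols was taken, which gave 23 of 34945 probe sets with 1 symbol, and 10 of 18193 genes. The arrays measured mouse bone marrow cells that were lineage-negative, c-Kit-positive and Sca-1-negative, the surface phenotype of myeloerythroid progenitors. All cells came from male mice of 6 weeks with the genotype Hes1 GFP/WT, so that 1 allele carried a green fluorescent reporter of Hes1, a target gene of Notch signalling. GFP-positive cells (3 Affymetrix arrays) were compared with GFP-negative cells (3 arrays) to ask how progenitors with reporter activity differ from those without it. The GFP-negative arrays are written N1 to N3 and the GFP-positive arrays P1 to P3. Whether the 3 arrays of a group stand for different animals is not in the labels, so a p-value here sets the difference against a spread that may be technical only. The reporter allele was present in both groups, and cells without it were not analysed here.

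ETS factors bind DNA sites built around the core GGAA, and most of them act together with a neighbouring factor at the same site. In the marrow, PU.1, the product of Spi1, is needed for granulocytes, macrophages and B cells, and PU.1 and the erythroid factor GATA1 oppose each other. Erg and Fli1 are closely related and act in stem cells and megakaryocytes, Etv6 and Elk3 are mainly repressors, and Gabpa encodes the DNA-binding subunit of the GABP complex.

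Levels are log2 intensities of a probe set, which on these arrays ran from 2.1 to 14.6, and a change is the GFP-positive mean minus the GFP-negative mean on that scale. A probe set was called when limma's p, adjusted over all 45037 probe sets tested (Benjamini-Hochberg), was under 0.05. Of these, 3452 were lower (7.66%) and 2860 higher (6.35%) in GFP-positive arrays, a share of 45.3% higher among the calls, which became 61.5% with array medians subtracted. Leaving out an array gave 2300 lower and 1257 higher calls without N2, and 2192 and 1212 without N3. The higher count was 1396 without P2 and 1555 without P3. Hes1 was higher by 1.27 in GFP-positive arrays (adjusted p = 0.00141), which serves as a check of the sort. Jchain, an immunoglobulin-associated gene of plasma cells, lay at 8.85 in N3 and 8.65 in P1, against 3.64 to 4.08 on the other 4 arrays. For the called ETS, target and partner genes named below, the adjusted p without both of these arrays is given where it passed 0.05. That fit rests on the other 4 arrays and called 1652 probe sets lower and 681 higher, so a call can be lost in it without a smaller change. Among the calls lost, the change went from -0.87 to -0.95 for Etv6 1434880_at and from -0.73 to -0.58 for Fli1 1433512_at.

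Most of the ETS genes that were called were lower in GFP-positive progenitors. Among the 23 probe sets, 13 fell and 1 rose, where 7.66% of all probe sets fell and 6.35% rose. The arrays of the groups did not overlap for 15 of the 23, against 38.5% of all probe sets. Taking for each gene its probe set of highest mean, 6 of 10 genes fell: Spi1, Fli1, Erg, Elf1, Etv6 and Elk3. Of all 18193 genes 9.92% fell. The median change was -0.71 over the 10 genes and 0.11 over all genes. Over all genes 18.1% were called in either direction. The groups did not overlap for 6 of the 10 genes, against 45.6% of all genes. None of the 10 rose by that probe set, while 1 of 2 probe sets of Gabpa did. Spib, Ets1, Ets2 and Gabpa were not called by it. Without N3 and P1 together, 3 genes (Spi1, Erg and Elk3) and 9 probe sets were called lower. These are RNA levels of sorted populations, in which fewer cells of a type and less RNA per cell cannot be told apart.

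**Figure D1:**
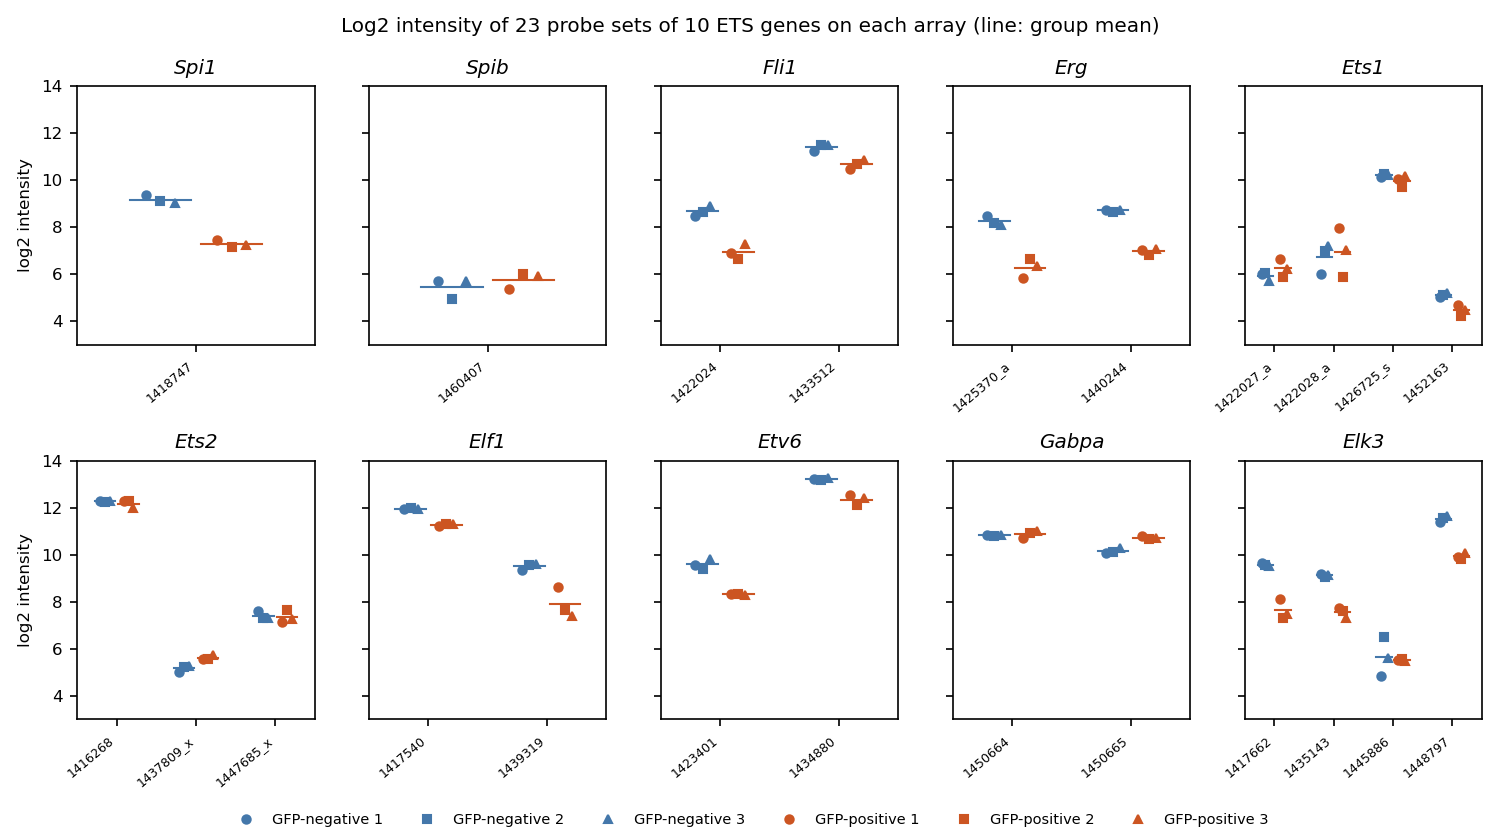
Log2 intensity (y axis) of each of the 23 probe sets (x axis) of the 10 ETS genes, with 1 point for each array (blue, GFP-negative; orange, GFP-positive; marker shape, array number) and a line at each group mean. Spi1, both probe sets of Erg, Fli1, Elf1 and Etv6, and 3 of 4 of Elk3 lie lower in all 3 GFP-positive arrays.

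Spi1 encodes PU.1. Its 1 probe set read 9.36, 9.11 and 9.02 in GFP-negative arrays 1 to 3. It read 7.43, 7.13 and 7.25 in GFP-positive arrays 1 to 3. All 3 GFP-positive arrays lay well below all 3 GFP-negative arrays, and the spread within a group was small beside the gap. Spi1 was 3.71-fold lower, a change of -1.89 with a 95% interval of -2.21 to -1.58 (9.16 ± 0.17 to 7.27 ± 0.15, SD, n = 3 each; limma adjusted p = 0.00113). The adjusted p stayed at or below 0.00744 without any 1 array and was 0.0233 without both arrays with Jchain signal.

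Spib encodes Spi-B, the nearest relative of PU.1, which is used by B cells and plasmacytoid dendritic cells. Its probe set read 5.72, 4.92 and 5.71 in GFP-negative arrays and 5.36, 6.01 and 5.90 in GFP-positive arrays. The groups overlapped. The change of 0.31 had a 95% interval of -0.35 to 0.97 (adjusted p = 0.478), so neither a rise of up to 0.97 nor a small fall could be told from no change with these arrays. The difference between the changes of Spi1 and Spib was not itself tested.

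Fli1 acts in megakaryocytes and stem cells. Its brightest probe set (1433512_at) read 11.25, 11.47 and 11.49 in GFP-negative and 10.45, 10.70 and 10.86 in GFP-positive arrays. The groups did not overlap, and the change was -0.73 (95% interval -1.07 to -0.40; adjusted p = 0.0189). This call was lost without N2 (adjusted p = 0.0706), N3 (0.0728) or P2 (0.0573), and without both arrays with Jchain signal (0.116). The other probe set (1422024_at) read 8.48, 8.63 and 8.89 in GFP-negative and 6.88, 6.62 and 7.26 in GFP-positive arrays. It showed a change of -1.75 (-2.21 to -1.28; adjusted p = 0.00314), and its call held without any 1 array (adjusted p up to 0.0158). Both probe sets fell, by amounts whose intervals do not overlap, so the size of the fall of Fli1 depends on the probe set.

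Erg, the close relative of Fli1 and a factor of stem cell maintenance, fell at both probe sets. The brighter one (1440244_at) read 8.74, 8.65 and 8.72 in GFP-negative and 7.04, 6.83 and 7.07 in GFP-positive arrays. Erg was 3.29-fold lower by it (8.70 ± 0.05 to 6.98 ± 0.13, SD, n = 3; change -1.72, 95% interval -1.96 to -1.48; adjusted p = 0.00108). The other (1425370_a_at) read 8.46, 8.16 and 8.10 against 5.84, 6.66 and 6.33, a change of -1.96 (adjusted p = 0.00341). P1 was the lowest at this probe set but not at the other. Both calls held without any 1 array (adjusted p up to 0.0161).

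Elk3, also named Net, belongs to the ternary complex factors, which bind with serum response factor, and represses transcription until it is phosphorylated. Its brightest probe set (1448797_at) read 11.39, 11.58 and 11.64 in GFP-negative and 9.89, 9.83 and 10.07 in GFP-positive arrays. Elk3 was 3.05-fold lower by it (11.54 ± 0.13 to 9.93 ± 0.12, SD, n = 3; change -1.61, 95% interval -1.89 to -1.33; adjusted p = 0.00117). Probe set 1435143_at changed by -1.57 (adjusted p = 0.00151) and 1417662_at by -1.94 (adjusted p = 0.00307). The 3 calls held without any 1 array. In the last of these, P1 read 8.13 and arrays 2 and 3 read 7.32 and 7.47, all below the GFP-negative range of 9.53 to 9.65. The fourth probe set, 1445886_at, was not called (change -0.13, 95% interval -1.08 to 0.82; adjusted p = 0.849), and its GFP-negative arrays ranged from 4.85 to 6.52.

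Etv6, also named TEL, is a repressor needed by adult marrow stem cells. Its brightest probe set (1434880_at) read 13.23, 13.19 and 13.25 in GFP-negative and 12.54, 12.10 and 12.41 in GFP-positive arrays, which did not overlap. It was 1.82-fold lower (13.22 ± 0.03 to 12.35 ± 0.23, SD, n = 3; change -0.87, 95% interval -1.18 to -0.55; adjusted p = 0.00893). The adjusted p was 0.0517 without N3 and P1. The other probe set (1423401_at) read 9.58, 9.41 and 9.82 against 8.33, 8.35 and 8.28, a change of -1.28 (adjusted p = 0.00213). Both calls held without any 1 array (adjusted p up to 0.0396).

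Elf1, a factor of lymphoid and other blood cells, fell at both probe sets. The brighter (1417540_at) read 11.95, 12.01 and 11.93 in GFP-negative and 11.21, 11.31 and 11.31 in GFP-positive arrays. It was 1.61-fold lower (11.96 ± 0.04 to 11.27 ± 0.06, SD, n = 3; change -0.69, 95% interval -0.90 to -0.48; adjusted p = 0.0047). That call held without any 1 array and had an adjusted p of 0.0551 without both arrays with Jchain signal. The other (1439319_at) read 9.34, 9.58 and 9.63 against 8.62, 7.67 and 7.40, where P1 lay apart from the other two. Its change was -1.62 (adjusted p = 0.0202), and the call was lost without N2 (0.0688), N3 (0.0733) or P2 (0.0676).

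Gabpa, whose GABP complex drives many mitochondrial and housekeeping genes, showed no fall at either probe set. The brighter (1450664_at) read 10.85, 10.81 and 10.83 in GFP-negative and 10.71, 10.95 and 11.02 in GFP-positive arrays, and the groups overlapped (change 0.07, 95% interval -0.20 to 0.33; adjusted p = 0.713). The other (1450665_at) read 10.08, 10.11 and 10.29 against 10.82, 10.69 and 10.70, a rise of 0.57 or 1.49-fold (95% interval 0.33 to 0.82; adjusted p = 0.0149). That call was lost without N2 (0.0613) and without both arrays with Jchain signal (0.0675). The probe sets thus disagreed on whether Gabpa rose.

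Ets1 and Ets2, the founding pair of the family, were not called by their brightest probe sets. Ets1, which T and natural killer cells use, read 10.13, 10.24 and 10.22 in GFP-negative and 10.05, 9.72 and 10.15 in GFP-positive arrays at 1426725_s_at (change -0.22, 95% interval -0.54 to 0.10; adjusted p = 0.300). Of its other 3 probe sets, 1452163_at fell by 0.66 (adjusted p = 0.0262). With 1 array left out, that call was kept only when the array was P1: leaving out N1, N2, N3, P2 or P3 gave adjusted p of 0.0527, 0.0829, 0.0929, 0.0582 and 0.0721, and leaving out N3 and P1 together gave 0.0748. The last 2 Ets1 probe sets had changes of 0.34 and 0.23 (adjusted p = 0.306 and 0.807), and 1422028_a_at ranged from 5.89 to 7.94 within the GFP-positive group. Ets2, a target of the MAP kinase pathway, read 12.29, 12.23 and 12.29 against 12.28, 12.27 and 11.98 at 1416268_at (change -0.09, 95% interval -0.36 to 0.18; adjusted p = 0.603). Its probe set 1437809_x_at read 5.00, 5.24 and 5.27 against 5.55, 5.55 and 5.72 without overlap. That change of 0.43 had an adjusted p of 0.0538, and 0.035 with array medians subtracted. The third had a change of -0.06 (adjusted p = 0.831).

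**Figure D2:**
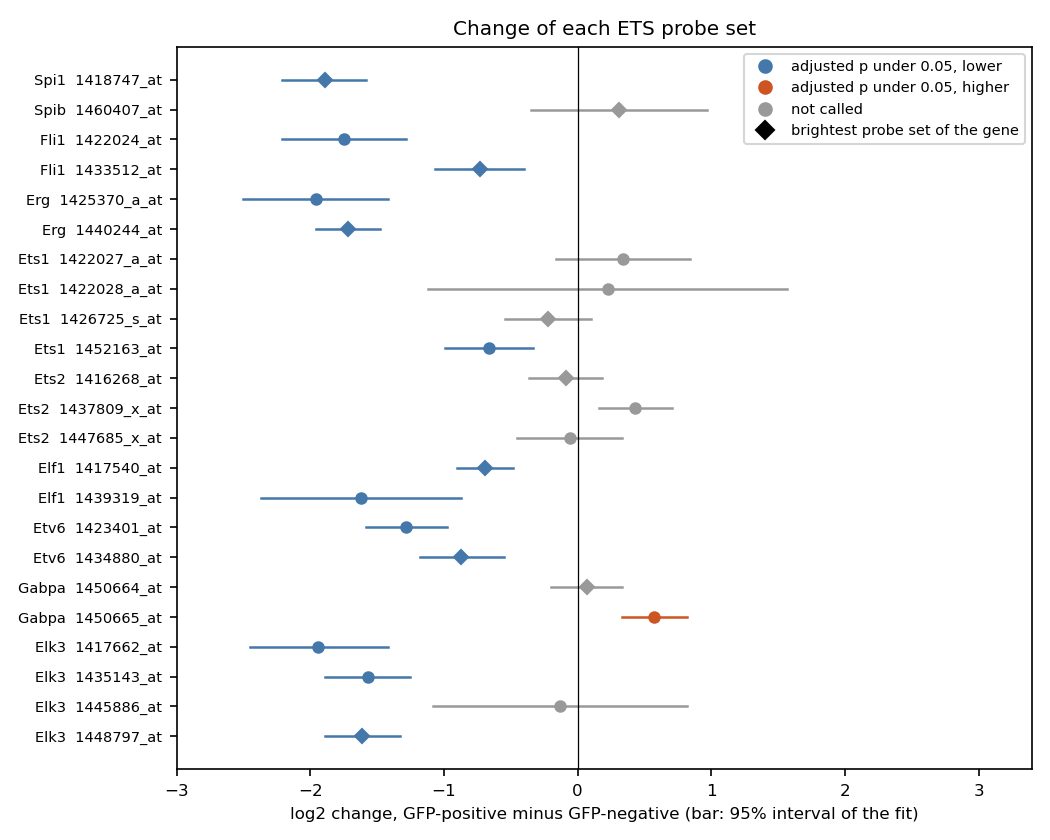
Change of each ETS probe set (x axis, GFP-positive minus GFP-negative, log2 intensity) with the 95% interval of the limma fit; diamonds mark the probe set of highest mean of a gene, blue those called lower, orange higher and grey not called. Changes run from -1.96 (Erg) to 0.57 (Gabpa), and the intervals of both Fli1 probe sets do not overlap.

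By the size of the change at the brightest probe set, the members fell into a steep part, with Spi1 at -1.89, Erg at -1.72 and Elk3 at -1.61, and a shallow part, with Etv6 at -0.87, Fli1 at -0.73 and Elf1 at -0.69. Within each of these parts the 95% intervals overlapped, and differences between neighbours in this order were not tested. The interval of Elk3, nearest to zero among the steep ones at -1.33, lay beyond that of Etv6, which reached -1.18. The other probe sets of Fli1, Elf1 and Etv6 had changes of -1.75, -1.62 and -1.28, so the split does not hold across probe sets. The likeness to Spi1 was measured as the root mean square difference over the 6 arrays after each gene was centred on its own mean. Among 18192 other genes the nearest were Vat1, Tnfrsf13b and Pik3ip1, each at 0.08. Tnfrsf13b encodes TACI, which B cells use to sense survival factors, and Pik3ip1 an inhibitor of PI3 kinase. Of the members, Erg came nearest at 0.14 (rank 36), then Elk3 at 0.25 (rank 233), and Spib lay farthest at 1.16 (rank 15600). This likeness is largely the difference between the groups and is given as a description.

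**Figure D3:**
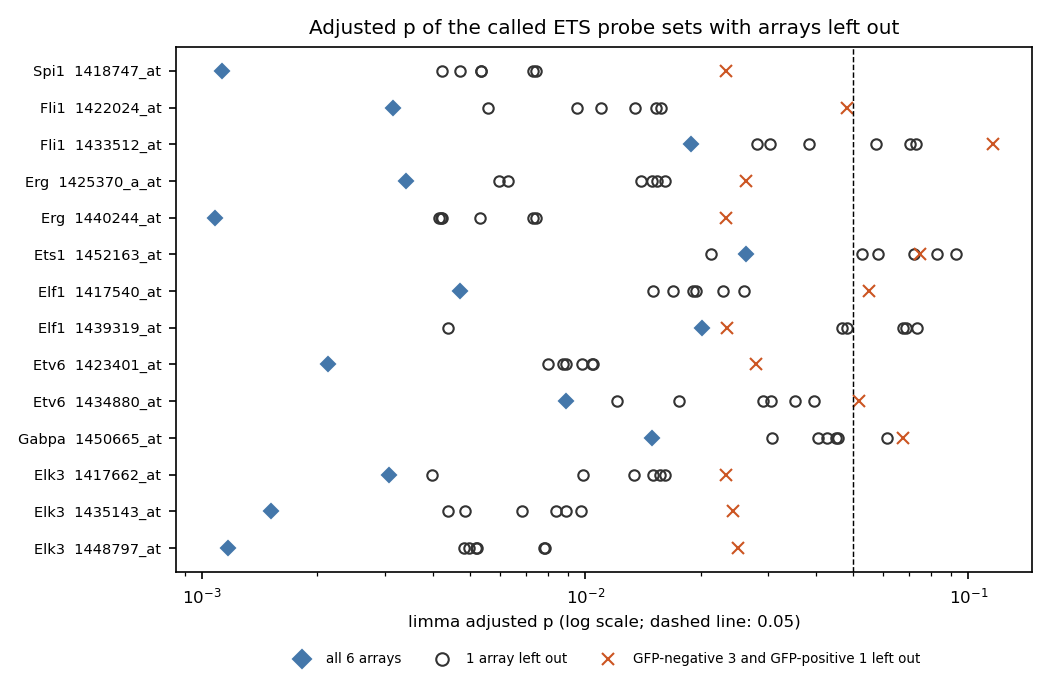
Limma adjusted p (x axis, log scale) of the 14 called ETS probe sets with all 6 arrays (diamonds), with 1 array left out (open circles) and without N3 and P1 (crosses); the dashed line is at 0.05. For 10 of the 14 all open circles lie left of the line.

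Start sites of 7 members, Spib, Erg, Ets2, Elf1, Etv6, Gabpa and Elk3, matched RefSeq promoter entries of build GRCm38.p6, with 10 starts in all. The 250 bases before each start were searched on both strands. The ETS core GGAA was searched first. The letters CCGGAA are a site that many ETS factors favour. The letters GAGGAA are part of many PU.1 sites. Both of these hold the core, so each of their matches is a match of the core too. The letters AGATAA are a site of GATA factors. CCGGAA was found before 1 of the 10 starts, that of Gabpa, and before 12.0% of all 32851 starts. GAGGAA was found there as well (23.3% of all starts), and AGATAA before 1 of 3 starts of Erg (9.99%). GGAA stood before 8 of the 10 starts, against 93.4% of all. These are matches of letters and not measured sites. The stretch of Gabpa that holds CCGGAA is shown because it was the only 1 among these starts (chr16:84835020-84835049, plus strand; capitals, the match, which reads CCGGAA on the other strand), within the transcribed region of both Gabpa and its overlapping neighbour Atp5j. The upstream stretches of 3 members that fell follow for comparison: Etv6 (chr6:134035450-134035699, plus strand), Elk3 (chr10:93311160-93311409, minus strand) and the outermost start of Erg (chr16:95586601-95586843, minus strand). In these 3, capitals mark GGAA or its reverse complement TTCC. The core in either form occurs 3 times before Etv6, 2 times before Elk3 and 0 times in the stretch of Erg.
Gabpa: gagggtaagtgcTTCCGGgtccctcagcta
Etv6: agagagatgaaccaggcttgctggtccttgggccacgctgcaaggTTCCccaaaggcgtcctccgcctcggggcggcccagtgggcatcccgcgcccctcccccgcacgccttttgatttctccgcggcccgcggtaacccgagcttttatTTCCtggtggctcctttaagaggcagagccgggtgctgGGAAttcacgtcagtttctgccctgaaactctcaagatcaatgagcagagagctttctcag
Elk3: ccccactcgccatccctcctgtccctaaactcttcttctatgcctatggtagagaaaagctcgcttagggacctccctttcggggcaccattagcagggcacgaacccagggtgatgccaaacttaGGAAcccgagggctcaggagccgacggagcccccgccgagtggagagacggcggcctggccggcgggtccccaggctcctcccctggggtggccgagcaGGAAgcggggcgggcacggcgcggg
Erg: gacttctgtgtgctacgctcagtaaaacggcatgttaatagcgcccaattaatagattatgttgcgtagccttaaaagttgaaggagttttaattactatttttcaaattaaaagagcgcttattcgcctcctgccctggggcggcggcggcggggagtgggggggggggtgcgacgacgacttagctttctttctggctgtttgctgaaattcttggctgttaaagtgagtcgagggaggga

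Outside the 10 members, few ETS genes were called. Of 14 other ETS genes measured, 1 fell and 0 rose (3 and 0 at an unadjusted p under 0.05), against 9.92% and 8.15% of all genes, and their median change was -0.04. The 1 that fell was Elf4, a factor of T and natural killer cells closely related to Elf1. It lay at 10.02 ± 0.04 (SD, n = 3) in GFP-negative arrays and read 9.04, 8.74 and 9.04 in GFP-positive arrays, a change of -1.08 (95% interval -1.36 to -0.81; adjusted p = 0.00258). The call held without any 1 array (adjusted p up to 0.0155). Elk4 and Elk1, ternary complex factors like Elk3, had changes of -0.16 and -0.15 (adjusted p = 0.241 and 0.493). The repressors Etv3 and Erf had changes of -0.32 and 0.05 (adjusted p = 0.0879 and 0.748). Spic, the third gene of the Spi group, had a change of -0.62 (95% interval -1.15 to -0.10; adjusted p = 0.110) with overlapping groups. Among the 14, Elf3, Elf5, Ehf, Etv2, Etv4, Spdef and Spic had group means of 3.81 (Elf5) to 5.23 (Spic). At such dim levels a fall may not be seen. Members other than Spib had GFP-negative means of 8.70 (Erg) or higher at their brightest probe sets. That the 10 members changed more often than these 14 was not tested.

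Genes known as targets of PU.1 were largely lower in GFP-positive cells. Of 17 measured, 10 fell and 0 rose (13 and 0 at an unadjusted p under 0.05), against 9.92% and 8.15% of all genes, with a median change of -1.47. Flt3, a receptor of multipotent progenitors, had the greatest fall of the list at -3.13, followed by Csf1r, the M-CSF receptor of monocytes, at -2.74 and the factor Irf8 at -2.42. The receptors of GM-CSF fell at both chains by their brightest probe sets. Csf2rb, the shared beta chain, read 10.99, 11.15 and 11.25 in GFP-negative and 8.93, 8.42 and 9.36 in GFP-positive arrays (change -2.22; adjusted p = 0.00275). Csf2ra, the alpha chain, changed by -1.47 (adjusted p = 0.00379, and 0.0549 without both arrays with Jchain signal). The other Csf2ra probe set had a change of -0.39 (adjusted p = 0.627) with overlapping groups. Csf3r, the granulocyte colony-stimulating factor receptor, changed by -1.90 (adjusted p = 0.00124) and the Fc receptor Fcgr3 by -1.73 (adjusted p = 0.00256). Lysozyme Lyz2 changed by -1.72 (adjusted p = 0.000936). Cybb, a subunit of the phagocyte oxidase, changed by -1.36 (adjusted p = 0.00428, and 0.059 without both arrays). Tlr4, the receptor of endotoxin, changed by -1.99 (adjusted p = 0.016, but 0.062 without N3, 0.0564 without P2 and 0.127 without N3 and P1). Of the 4 probe sets of Tlr4 only this 1 was called. Without both arrays with Jchain signal 6 of the 17 were called lower, and Csf1r had an adjusted p of 0.0624. Of the 7 targets not called, Il7r and Itgb2, at -0.93 and -0.56, had adjusted p of 0.052 and 0.0574. Btk, Fcgr1 and Cd14 had changes of -0.32, -0.61 and -0.61 (adjusted p = 0.101, 0.274 and 0.325). Itgam and Msr1 had changes above zero, of 0.11 and 0.21 (adjusted p = 0.716 and 0.411). The list holds 3 genes that also mark granulocyte and monocyte progenitors below (Csf1r, Csf3r and Fcgr3) and 1 that marks multipotent cells (Flt3).

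Proteins that ETS factors work with moved in both directions. Of 17 measured partner genes 6 fell and 2 rose, against 9.92% and 8.15% of all genes, and the median change was -0.09. Besides Irf8, a partner of PU.1 at composite sites, the granulocyte factor Cebpa fell, from 13.18, 13.04 and 13.03 in GFP-negative to 11.72, 11.32 and 11.52 in GFP-positive arrays (change -1.57; adjusted p = 0.00137). Cbfb, the non-DNA-binding partner of Runx factors, changed by -0.83 (adjusted p = 0.00751). Runx1 itself changed by -0.60 (adjusted p = 0.0226), and that call held only without P1: it was lost without N1, N2 or N3 and without P2 or P3 (0.062, 0.0733, 0.0711, 0.0772 and 0.0681), and had an adjusted p of 0.0515 without N3 and P1. Gata2 changed by -0.49 (adjusted p = 0.0351), likewise lost without N1, N2 or N3 and without P2 or P3 (0.0672, 0.0969, 0.118, 0.0927 and 0.0856), and without N3 and P1 together (0.118). Gabpb1, the partner subunit of Gabpa, changed by -0.51 (adjusted p = 0.0131), a call lost without N2 or N3 or P2 (0.0546, 0.0556 and 0.0516), and without N3 and P1 together (0.0812). The count of partner genes called lower was thus 3 without N2, N3 or P2.

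The partner genes that rose are regulators of red cell development. Gata1, the erythroid factor that opposes PU.1, read 11.73, 11.65 and 11.58 in GFP-negative and 12.33, 12.61 and 12.48 in GFP-positive arrays (change 0.82, 95% interval 0.56 to 1.08; adjusted p = 0.00555). Its 3 GFP-positive arrays all lay above its GFP-negative arrays, the reverse of Spi1. Tal1, a partner of GATA factors, changed by 0.65 (adjusted p = 0.00934, and 0.0748 without both arrays with Jchain signal). Lmo2, which bridges Tal1 and GATA factors, had a change of 0.02 (95% interval -0.18 to 0.23; adjusted p = 0.879). The coactivators Crebbp and Ep300 had changes of -0.09 and 0.01 (adjusted p = 0.551 and 0.970).

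Among genes known as targets of Fli1 and of GABP, 2 of 12 rose and 0 fell (4 and 0 at an unadjusted p under 0.05), against 8.15% and 9.92% of all genes. Of 6 megakaryocyte genes 1 rose, the platelet glycoprotein Gp5, by 1.28 (adjusted p = 0.028). That call was lost without N1 (0.0669), N3 (0.0772), P1 (0.0655) or P2 (0.0827), and without N3 and P1 together (0.114). The integrin Itga2b had a change of -0.42 (adjusted p = 0.165) and Gp9 one of -0.03 (adjusted p = 0.889). Gp1bb, Pf4 and Gp6 had changes of 0.70, 0.51 and 0.19 and were not called (adjusted p = 0.191, 0.0586 and 0.382). Of 6 mitochondrial genes 1 rose, Tfam, the packaging factor of mitochondrial DNA, by 0.40 (adjusted p = 0.03). Leaving out any of N1 to P3 ended that call, with an adjusted p between 0.0654 and 0.0979, and it was 0.141 without N3 and P1. The other Tfam probe set was not called (change 0.24, adjusted p = 0.186). Tfb1m was not called by its brightest probe set (change 0.48, adjusted p = 0.0869). The other Tfb1m probe set rose by 0.66 (adjusted p = 0.0171), a call lost without N2 (0.066), N3 (0.0674) or P2 (0.0604). It was also lost without N3 and P1 together (0.137). The median changes were 0.35 in the megakaryocyte and 0.14 in the mitochondrial genes, against 0.11 over all genes.

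**Figure D4:**
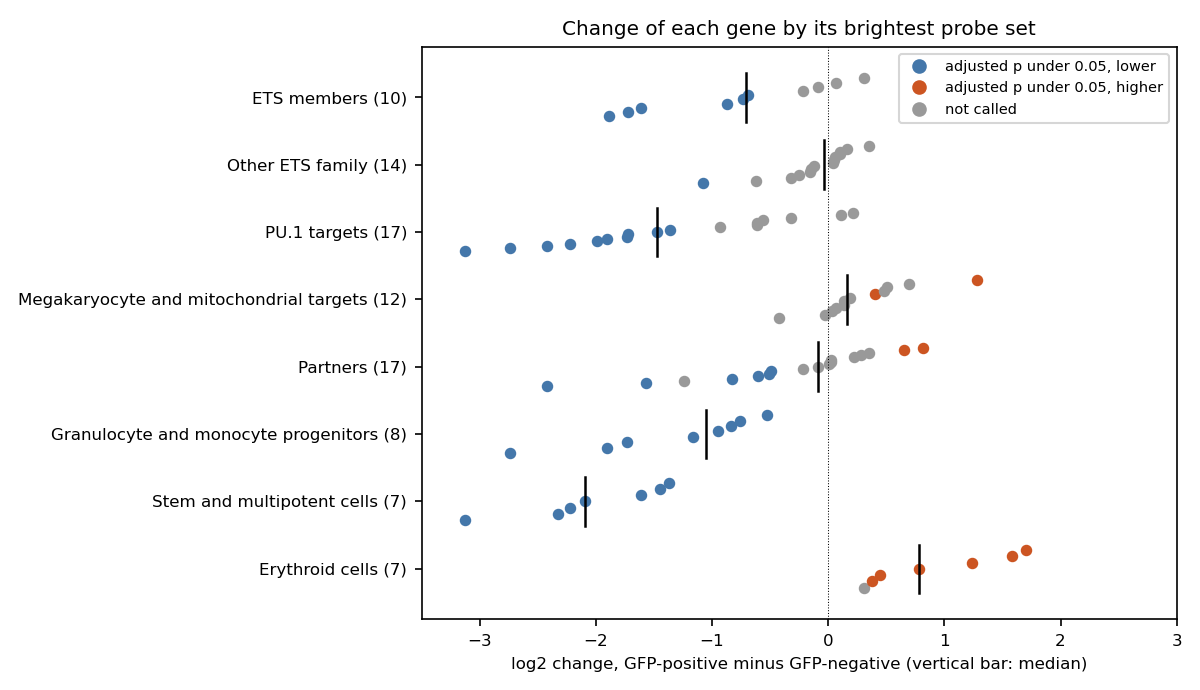
Change (x axis, GFP-positive minus GFP-negative, log2 intensity) of each gene by its brightest probe set in the ETS members and in 7 lists, with the number of genes in brackets; blue points were called lower, orange higher and grey not called, and the vertical bar is the median. The medians are -0.71 for the ETS members, -0.04 for the other ETS genes and -1.47 for the PU.1 targets.

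Markers of several cell types differed between the groups as well, some lists lower and some higher in GFP-positive arrays. Of all genes 9.92% fell and 8.15% rose. The summed intensity of a list is set mostly by its brightest genes. Of 7 markers of stem and multipotent cells 7 fell, with a summed intensity of 11410 to 13200 in GFP-negative and 3342 to 4007 in GFP-positive arrays. Of 8 markers of granulocyte and monocyte progenitors 8 fell, with 60530 to 65180 against 29320 to 36700. Of 7 erythroid markers 6 rose, with 39950 to 41300 against 59470 to 63680. Of 12 B and plasma cell markers 2 fell, Cd79b and Ighm, and 0 rose (3 and 3 at an unadjusted p under 0.05). The median change of these 12 was -0.04, and their summed intensity was 4526 to 5843 against 1974 to 3186. Of 6 plasmacytoid dendritic cell markers 1 fell, Cox6a2, and 0 rose (3 and 1 at an unadjusted p under 0.05). The sum of these 6 was 7392 to 7457 against 5419 to 6449, and most of it came from Tcf4, which was not called. Of 7 T and natural killer cell markers 0 were called by limma (1 higher at an unadjusted p under 0.05), with 262.6 to 274.4 against 319.1 to 353. Of 6 megakaryocyte markers 1 rose, Gp5, and 0 fell (3 and 0 at an unadjusted p under 0.05). The sum of these 6 was 3933 to 5160 against 5774 to 7141, and most of it came from Pf4, which was not called. The part of these markers in the ETS changes was not tested. Kit, on which the cells were sorted, read 11.31 to 11.53 in GFP-negative and 11.13 to 11.24 in GFP-positive arrays. These did not overlap (change -0.25, 95% interval -0.49 to -0.02, limma adjusted p = 0.138). The myeloid lineage gene Itgam lay at 3.83 to 4.45 on all arrays. Cd3e, a T cell lineage gene, read 4.62 to 5.70 in GFP-negative and 5.41 to 6.29 in GFP-positive arrays, which overlapped (change 0.79, 95% interval -0.02 to 1.61; adjusted p = 0.167).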

How the data were processed

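RNA of 3 GFP-positive and 3 GFP-negative samples was read on Affymetrix arrays, after amplification of 5 ng of total RNA with a NuGEN Ovation kit per the labels. What the authors deposited is 1 linear intensity per probe set and array, made with RMA per the submitters' processing notes. For RMA, the version, the settings and the step back from log2 are not stated in what was used here. RMA makes no detection call, so dim probe sets carry background. The log2 of each intensity was used as it stood. From 45101 probe sets, 64 controls were removed. Names came from GEO's platform annotation, and all 10 members matched the RefSeq gene table of GRCm38.p6 by gene ID.

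The groups were fitted in limma 3.58.1 under R 4.3.3 (lmFit, eBayes, 2-sided, no covariate), with Benjamini-Hochberg adjustment over 45037 probe sets and 95% intervals from the fit. Each gene took its probe set of highest average signal. The rule for naming took all member probe sets, the called genes of each list (those of highest mean otherwise), Hes1 and the 3 genes nearest to Spi1; any other gene was picked with its values in view. The members and lists were chosen with earlier results of these data known. The procedure was tested on simulated data with planted changes and independent noise, which checks the fit and not the calls made here. Alternatives covered the replicate block, trended and robust priors, quantile normalization, array medians subtracted, the brighter probe sets, array weights, arrays left out (each alone, and both with Jchain signal) and the most variable probe set of a gene. Python 3.11.15, pandas 2.3.3 and matplotlib 3.10.9 made the tables and figures.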

Additional observations from a re-analysis of the deposited data

How the results depend on the processing

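No change of a called or named probe set turned its sign past the threshold under the alternatives run. Of the 14 called ETS probe sets, 10 kept the call without each array and 8 under all alternatives; 1 of the 9 not called, of Ets2, was called in some. Without both arrays with Jchain signal, 1652 probe sets were lower and 681 higher, 3 member genes were lower, 0 member probe sets were higher, 6 PU.1 targets were lower, 3 partner genes were lower and 1 higher, and 0 megakaryocyte and mitochondrial genes were higher. With array medians subtracted 5218 probe sets were higher and 2 member probe sets were, as with array weights. The intensity trend called 2 other ETS genes lower and 4 megakaryocyte and mitochondrial genes higher. The probe set of highest variance called 1 member gene (Gabpa) and 1 other ETS gene (Etv4) higher. Without 1 array, all probe sets called ran from 2192 to 3098 lower and 1212 to 2243 higher, member probe sets from 10 to 13 lower and 0 to 1 higher, partner genes from 3 to 6 lower, and megakaryocyte and mitochondrial genes from 0 to 1 lower and 0 to 2 higher. The cause of these differences was not tested.

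The labels do not say that replicate numbers pair arrays. Deviations of same-numbered arrays correlated at 0.023, 0.055 and 0.019, each array best with its own number. With the replicate block 2872 probe sets were lower and 1969 higher, 11 member probe sets were lower and 0 higher, and 1 megakaryocyte and mitochondrial gene was higher. Among the probe sets named in the text, the block ended the calls of Ets1 1452163_at (adjusted p = 0.0643), Elf1 1439319_at (0.0626), Gabpa 1450665_at (0.0502), Gata2 1428816_a_at (0.0681), Tfam (0.0746) and Etv4 1423232_at (0.0501). Precision is limited by there being only 3 arrays in a group.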

Other observations

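Erg and Fli1 also act in endothelium. Of 7 endothelial markers 2 fell and 1 rose, against 9.92% and 8.15% of all genes. The mucin Emcn, found on endothelium and stem cells, read 6.61, 6.60 and 6.52 in GFP-negative and 3.94, 4.19 and 4.08 in GFP-positive arrays (change -2.50; limma adjusted p = 0.000936). Tek, the receptor of angiopoietins, changed by -1.71 (adjusted p = 0.00289). Vwf, von Willebrand factor of endothelium and platelets, changed by 0.63 (adjusted p = 0.00913, and 0.0701 without both arrays with Jchain signal). Cdh5 and Kdr, which define endothelium, read at most 4.22 and 5.83 on any array.

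Further probe sets of partner genes and relatives were named after their values were seen. Those of Gata2 (1450333_a_at) and Runx1 (1440878_at) fell by 0.78 and 1.13 (adjusted p = 0.0104 and 0.00233), with calls that held without any 1 array, unlike those of the brightest probe sets; that of Gata2 had an adjusted p of 0.0822 without both arrays with Jchain signal. Gabpb2, which like Gabpb1 pairs with Gabpa, rose at 1 of 4 probe sets by 0.79 (adjusted p = 0.00997, and 0.0677 without N3 and P1). Gabpb1 fell at 1 of 2 probe sets, and the other (1419761_a_at) had a change of -0.04 (adjusted p = 0.879). Etv4 rose at 1 of 2 probe sets by 0.51 (adjusted p = 0.0165; 0.0658 when N3 was left out, 0.056 when P3 was and 0.124 when N3 and P1 were).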
